A study of Mus musculus with 12 samples.

Results

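The genes described here are 10 mouse genes of the amino acid stress response that is centred on ATF4: *Atf4*, *Atf5*, *Asns*, *Psat1*, *Phgdh*, *Chac1*, *Trib3*, *Ddit3*, *Sesn2* and *Mthfd2*. They were chosen by symbol, and all 10 were found among the 30098 genes that had a probe set assigned to 1 symbol. RNA came from 3T3-L1 cells, a clonal mouse preadipocyte line that turns into lipid-storing adipocytes when it is given dexamethasone, IBMX and insulin, and was measured on 12 Affymetrix Mouse Transcriptome Arrays 1.0. All 4 groups were transfected with 100 nM siRNA and collected 2 days later (n = 3 arrays per group): control siRNA (Ctrl-siRNA) or siRNA against the long non-coding RNA *Paral1* (Paral1-siRNA), given when differentiation was induced and collected at D2 (experiments 1, 2 and 3), or given at D7 and collected at D9 (experiments 4, 5 and 6). Cells of the D9 groups had been detached and transfected in suspension as adipocytes, which the D2 cells had not, and came from other experiments, so that stage, handling and experiment cannot be told apart between the days. The labels name the siRNA that the methods list as Paral1/2-siRNA, whereas the text of the study names Paral1/1-siRNA as the one selected, and *Paral1* itself was not analysed here, so its knockdown was not checked.

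When amino acids run short or proteins misfold in the endoplasmic reticulum, kinases such as GCN2 and PERK phosphorylate the translation factor eIF2alpha. Protein synthesis then falls in general, while the mRNA of the transcription factor ATF4 is translated better. ATF4 switches on genes for amino acid synthesis, amino acid uptake and tRNA charging, together with the transcription factor CHOP (*Ddit3*) and other stress genes, and in growing cells the same program serves the supply of amino acids under mTORC1. It acts on DNA with C/EBP proteins as partners, at composite sites known as C/EBP-ATF response elements, and C/EBPbeta, one of those partners, is also an early factor of adipogenesis.

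The core of that composite element was looked for in the promoters of the 10 genes, which were chosen by symbol and not by holding it. The letters TGATGNAA were searched on both strands in the RefSeq windows (GRCm38.p6) from 250 bases before to 50 bases after each start site, which were found for all 10 genes (12 windows). Of all 32851 windows, 3.97% held a match, and 3 of the 10 genes did, *Chac1*, *Asns* and *Trib3*. They are shown 5′ to 3′ on the strand of the gene with the match in capitals, for *Chac1* and *Trib3* the match being on the opposite strand.
Chac1: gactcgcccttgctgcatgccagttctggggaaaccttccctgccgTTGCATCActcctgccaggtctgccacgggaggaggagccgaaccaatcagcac
Asns: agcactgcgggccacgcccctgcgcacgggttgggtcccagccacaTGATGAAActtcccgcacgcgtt
Trib3: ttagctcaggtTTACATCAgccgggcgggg
The *Chac1* stretch is chr2:119351003-119351102 (plus strand) and its match lies from -193 to -186 relative to the start site. The *Asns* stretch is chr6:7693210-7693278 (minus strand) with the match from -23 to -16, and the *Trib3* stretch, chr2:152344028-152344057 (minus strand), lies in the transcribed part just after the start. None of the 10 held the longer endoplasmic reticulum stress element, which was in 0.119% of all windows. A match is only a match of letters, and the other 7 genes have none in these windows alone.

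The values are log2 values on which 1 unit is a 2-fold difference, and levels of different genes are not compared, since probe sets differ in brightness. The brightest of the 23 background probe sets of each array, at a log2 value of 5.84 to 7.02, was taken as the limit of background, and 32.8% to 45.3% of the genes lay above it. At D9 all 10 genes were above it on every array. At D2 8 of them were, whereas *Trib3* was under it on all 6 arrays and *Chac1* on 5 of 6, so that changes of *Trib3* and *Chac1* between siRNAs at D2 are changes of dim signals. The brightness of 13 white adipocyte markers placed the stages, with a mean log2 level of 6.69 to 10.39 on the D2 arrays and 14.28 to 15.13 on the D9 arrays. Both D2 arrays of experiment 1 had the lowest values of their groups (7.16 and 6.69), and results at D2 are therefore also given without that experiment. No more than 3 of 7 macrophage markers, 2 of 6 skeletal muscle markers and 0 of 6 endothelial markers were above background on any array.

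**Figure D1:**
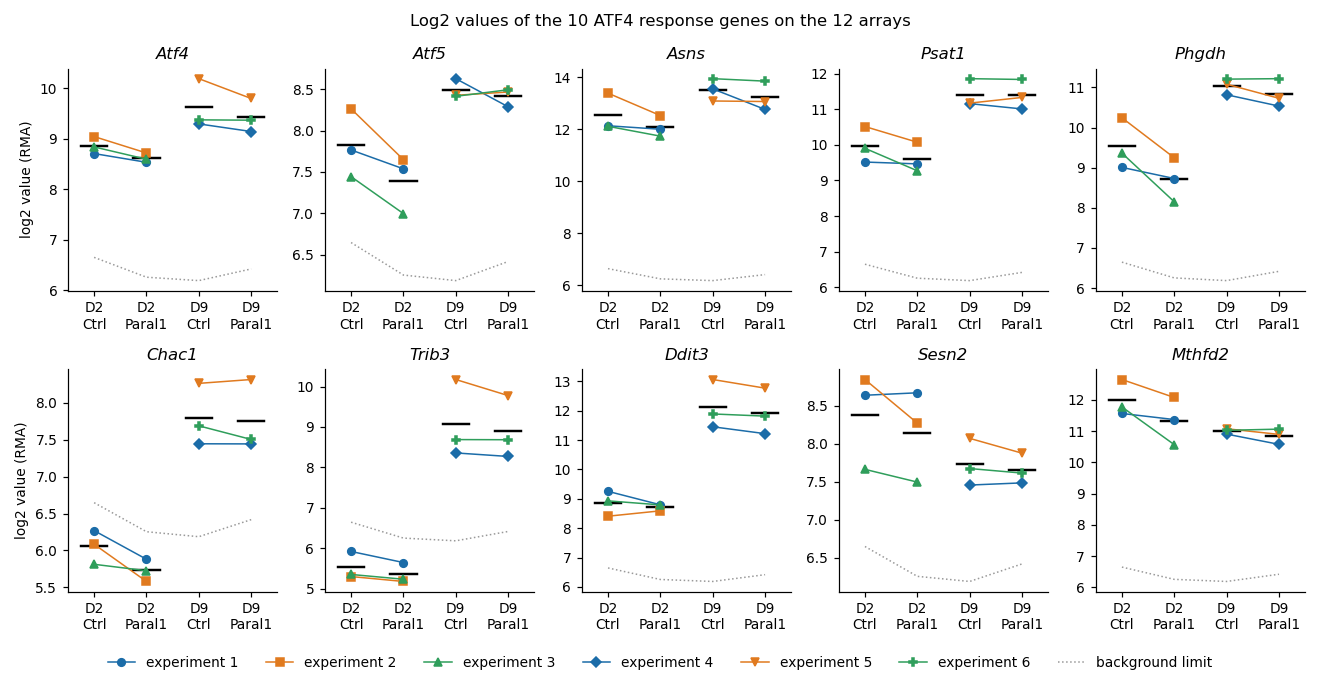
Log2 value of each of the 10 genes (vertical axes, scaled per gene) on the 12 arrays, in the 4 groups along the horizontal axes. A line joins the Ctrl-siRNA and Paral1-siRNA arrays of 1 experiment, black bars are group means (n = 3), and the dotted line is the mean background limit of the group. *Trib3* at D9 ranged from 8.27 to 10.17, far above its D2 values of 5.18 to 5.92.

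The first question was how these genes stood in D9 adipocytes against D2 cells. In Ctrl-siRNA cells 7 of the 10 genes rose and 1 fell (limma over all 12 arrays, Benjamini-Hochberg adjusted p under 0.05 over all genes), beside 14.9% of all genes that rose and 26.1% that fell. In Paral1-siRNA cells 8 rose and none fell, beside 14.5% and 25.2%. The median log2 difference of the 10 genes was 1.20 in Ctrl-siRNA and 1.46 in Paral1-siRNA cells, against -0.19 and -0.16 over all genes, and was 1.07 and 1.31 with *Trib3* and *Chac1* at the lower bounds that their D2 signal allows. The median of all genes moved to -0.05 in both after quantile normalization, and the 10 genes kept their directions under it. With each array's median subtracted, 5499 genes rose and 6301 fell in Ctrl-siRNA cells in place of 4487 and 7859, and 5562 and 6120 in Paral1-siRNA cells in place of 4372 and 7595.

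Among the stress effectors, *Trib3*, a pseudokinase that restrains AKT and ATF4 itself, and *Ddit3*, the transcription factor CHOP that forms inactive dimers with C/EBP proteins, moved most. *Trib3* had log2 values of 5.92, 5.30 and 5.36 on the D2 Ctrl-siRNA arrays (experiments 1, 2 and 3) and 8.36, 10.17 and 8.69 on the D9 Ctrl-siRNA arrays (experiments 4, 5 and 6). In Paral1-siRNA cells it had 5.65, 5.18 and 5.24 at D2 and 8.27, 9.78 and 8.68 at D9. All 6 D9 values lay above all 6 D2 values, and since the D2 signal was within background, *Trib3* was at least 5.38-fold higher at D9 in Ctrl-siRNA cells (adjusted p = 0.000261) and at least 6.31-fold higher in Paral1-siRNA cells (adjusted p = 0.000263). These bounds set the D9 mean against the mean of the background limits at D2.

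*Ddit3* was at 9.26, 8.41 and 8.93 in D2 Ctrl-siRNA cells and 11.45, 13.06 and 11.89 in D9 Ctrl-siRNA cells. It was at 8.80, 8.59 and 8.79 in D2 Paral1-siRNA cells and 11.22, 12.77 and 11.82 in D9 Paral1-siRNA cells. The days did not overlap, with a rise of 3.27 (SE 0.44, adjusted p = 0.000286) and 3.21 (SE 0.44, adjusted p = 0.000327) on the log2 scale, or 9.66-fold and 9.24-fold. A second *Ddit3* probe set, dimmer on average and not used, read 8.42 to 8.84 at D2 and 10.77 to 13.35 at D9. *Chac1*, an enzyme that degrades glutathione, was at 6.27, 6.08 and 5.81 in D2 Ctrl-siRNA cells, all within background, and at 7.44, 8.26 and 7.69 in D9 Ctrl-siRNA cells, which made it at least 2.22-fold higher (adjusted p = 0.000527). With Paral1-siRNA it was at 5.88, 5.58 and 5.73 at D2, above background on 1 of 3 arrays, and at 7.44, 8.31 and 7.502 at D9, at least 2.80-fold higher (adjusted p = 0.000213). No *Chac1* value of D2 reached one of D9.

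The serine enzymes rose as well. *Phgdh*, which commits 3-phosphoglycerate to serine synthesis, was at 9.01, 10.24 and 9.36 in D2 Ctrl-siRNA cells and 10.82, 11.08 and 11.21 in D9 Ctrl-siRNA cells, a rise of 1.496 (SE 0.34, adjusted p = 0.00594). With Paral1-siRNA it was at 8.73, 9.25 and 8.15 at D2 and 10.54, 10.73 and 11.22 at D9, a rise of 2.12 (SE 0.34, adjusted p = 0.000841). *Psat1*, the aminotransferase of the next step, rose by 1.42 (SE 0.32, adjusted p = 0.00567) and 1.79 (SE 0.32, adjusted p = 0.00162), from 9.52, 10.51 and 9.90 to 11.16, 11.17 and 11.86 in Ctrl-siRNA cells and from 9.47, 10.07 and 9.27 to 11.01, 11.33 and 11.84 in Paral1-siRNA cells. For both enzymes all 6 D9 values were above all 6 D2 values.

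*Asns*, the asparagine synthetase, was the enzyme whose days overlapped in control cells. It was at 12.14, 13.40 and 12.12 in D2 Ctrl-siRNA cells and 13.56, 13.10 and 13.95 in D9 Ctrl-siRNA cells, a difference of 0.98 (SE 0.40) that did not pass (adjusted p = 0.0703), experiment 2 at D2 lying above experiment 5 at D9. In Paral1-siRNA cells *Asns* went from 12.01, 12.54 and 11.74 to 12.77, 13.07 and 13.86 with no overlap, a rise of 1.14 (SE 0.40, adjusted p = 0.0426). That the 2 siRNA arms differ in this was not shown, since the difference between the arms was 0.16 (SE 0.56, 95% interval -1.09 to 1.401).

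The transcription factors *Atf4* and *Atf5* rose less than *Ddit3*. *Atf4* was at 8.70, 9.04 and 8.83 in D2 Ctrl-siRNA and 9.29, 10.18 and 9.37 in D9 Ctrl-siRNA cells, a rise of 0.76 (SE 0.24, adjusted p = 0.0266). It was at 8.53, 8.71 and 8.59 in D2 Paral1-siRNA and 9.14, 9.79 and 9.36 in D9 Paral1-siRNA cells, a rise of 0.82 (SE 0.24, adjusted p = 0.0191). The arrays measure its mRNA, not its protein, which is the level at which eIF2alpha acts on it. *Atf5*, a relative whose mRNA is translated under the same control, rose by 0.67 (SE 0.22, adjusted p = 0.0309) in Ctrl-siRNA cells, from 7.77, 8.26 and 7.44 to 8.63, 8.43 and 8.41. It rose by 1.02 (SE 0.22, adjusted p = 0.00399) in Paral1-siRNA cells, from 7.54, 7.65 and 7.00 to 8.29, 8.47 and 8.49.

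*Mthfd2* and *Sesn2* went the other way. *Mthfd2*, a mitochondrial enzyme of folate metabolism that is typical of dividing cells, was at 11.56, 12.65 and 11.77 in D2 Ctrl-siRNA cells and 10.90, 11.08 and 11.02 in D9 Ctrl-siRNA cells, and fell by 1.00 (SE 0.36, adjusted p = 0.0478). In Paral1-siRNA cells the values of 11.37, 12.08 and 10.57 at D2 and 10.58, 10.89 and 11.06 at D9 overlapped, with a difference of -0.49 (SE 0.36, adjusted p = 0.299). *Sesn2*, a leucine-binding protein that restrains mTORC1, did not pass in either, with differences of -0.65 (SE 0.35, adjusted p = 0.156) and -0.49 (SE 0.35, adjusted p = 0.285) and D2 and D9 values that overlapped. Proliferation markers moved in the same direction as *Mthfd2* between the days: all 7 were lower at D9 in Ctrl-siRNA cells (median difference -3.96) and the 7 had a mean level of 9.50 to 11.25 at D2 and 6.72 to 7.86 at D9. Their part in the *Mthfd2* difference was not tested.

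Of the 8 calls in Ctrl-siRNA cells, those of *Psat1*, *Phgdh*, *Chac1*, *Trib3* and *Ddit3* passed in every fit that left out an array or both arrays of an experiment, and those of *Atf4*, *Atf5* and *Mthfd2* did not. Without the D9 Ctrl-siRNA array of experiment 5, 5 calls were made, all rises, beside 3888 of all genes that rose and 6522 that fell. Without both D2 arrays of experiment 1, 5 genes rose and 1 fell in Ctrl-siRNA cells, beside 5263 and 7162 of all genes. In Paral1-siRNA cells 6 rose without those arrays, beside 5083 of all genes that rose and 7676 that fell. With 3 arrays in each group, the exact two-sided permutation test over arrays cannot give a p below 0.1, which it gave for each of the 8 genes in Ctrl-siRNA cells and each of the 8 in Paral1-siRNA cells whose days did not overlap, beside 18.4% of all genes with D9 apart and higher and 35.8% apart and lower in Ctrl-siRNA cells (18.3% and 35.9% with Paral1-siRNA). For 7 of the 10 genes all 6 D9 arrays lay above all 6 D2 arrays, as for 13.7% of all genes.

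**Figure D2:**
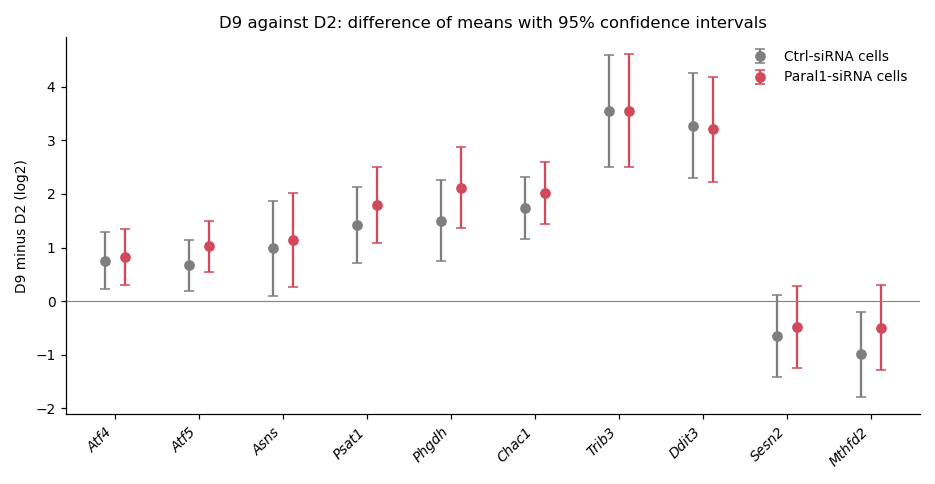
Difference between D9 and D2 group means (vertical axis, log2) for the 10 genes, in Ctrl-siRNA cells (grey) and Paral1-siRNA cells (red). Points are limma estimates over 12 arrays and bars are 95% confidence intervals. *Trib3* and *Ddit3* stand highest (3.55 and 3.27 in Ctrl-siRNA cells), with the *Trib3* and *Chac1* estimates resting on D2 signals mostly within background, and *Sesn2* and *Mthfd2* lie below 0.

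The D9 arrays did not agree among themselves on how high the response was. Both arrays of experiment 5 were above the other 4 D9 arrays for 5 of the 10 genes, *Atf4*, *Chac1*, *Trib3*, *Ddit3* and *Sesn2*, whereas the same held for 15.9% of all genes. For *Asns*, *Psat1* and *Phgdh* both arrays of experiment 6 were the highest (10.2% of all genes), and both arrays of experiment 4 were the lowest for *Atf4*, *Psat1*, *Chac1*, *Trib3*, *Ddit3* and *Sesn2* (12.5%). The range between experiments was wide, with 10.17 and 9.78 for *Trib3* in experiment 5 against 8.27 to 8.69 on the other 4 arrays, and 13.06 and 12.77 against 11.22 to 11.89 for *Ddit3*. The experiments were picked out after their values were seen, and nothing in the labels sets experiment 5 apart. Among the listed stress genes of ATF4, 6 of 14 were highest on both arrays of experiment 5 (*Ddit4*, *Map1lc3b*, *Herpud1*, *Gadd45a*, *Rhbdd1* and *Ero1a*). Of 8 genes, those for eIF2alpha kinases and phosphatase subunits with *Eif2b5* and *Impact*, 2 were highest there (*Eif2b5* and *Ppp1r15a*). Of these 8, 2 were lowest (the kinase genes *Eif2ak2* and *Eif2ak4*). Of 13 endoplasmic reticulum stress genes 4 were highest there, of 11 tRNA synthetase genes 2 were, and of 13 white adipocyte markers 1 was.

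At D2 the order was another. *Asns*, *Psat1* and *Mthfd2* were highest on both arrays of experiment 2, as were 4.51% of all genes, while *Ddit3* was lowest there (13.4% of all genes). *Atf5* and *Sesn2* were lowest on both arrays of experiment 3 (10.7%). Without experiment 5, the D9 rise in Ctrl-siRNA cells was 2.81 for *Ddit3* on the log2 scale, and 0.47 for *Atf4* (adjusted p = 0.0347).

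**Figure D3:**
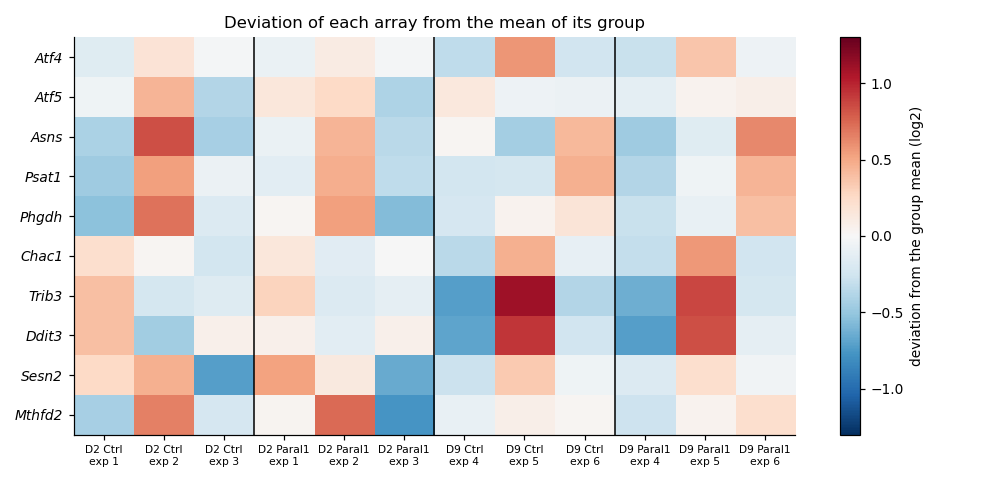
Deviation of each array from the mean of its group (colour, log2 units, red above and blue below) for the 10 genes in rows and the 12 arrays in columns, with black lines between the groups. The 2 arrays of an experiment mostly share their colours: experiment 5 is red for *Atf4*, *Chac1*, *Trib3*, *Ddit3* and *Sesn2*, and experiment 6 for *Asns*, *Psat1* and *Phgdh*.

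The second question was what Paral1-siRNA did to these genes at each stage. At D2 all 10 had a lower mean with Paral1-siRNA, as did 45.2% of all genes, and their median log2 difference was -0.35 against 0.02 over all genes. The 8 genes above background on every D2 array had differences of -0.14 to -0.83. Of the 10, 8 were lower in all 3 experiments (14.6% of all genes), the exceptions being *Ddit3* and *Sesn2*. No gene of the 10 passed (0.0% of all genes were lower at an adjusted p under 0.05 with limma on the 6 D2 arrays), none had an unadjusted p under 0.05 by limma (0.668% of all genes lower and 0.847% higher) or by the methods' t-test, and for none did the groups stand apart (2.11% lower and 3.06% higher).

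*Phgdh* showed the widest difference. With 9.01, 10.24 and 9.36 in Ctrl-siRNA and 8.73, 9.25 and 8.15 in Paral1-siRNA cells, it was lower by 0.28, 1.00 and 1.21 in experiments 1, 2 and 3, a mean log2 difference of -0.83 (SE 0.40, adjusted p = 1.0). *Mthfd2* was lower in the 3 experiments by 0.19, 0.58 and 1.21 (mean difference -0.66, SE 0.45), *Asns* by 0.13, 0.86 and 0.38 (-0.46, SE 0.40), *Atf5* by 0.23, 0.61 and 0.45 (-0.43, SE 0.27) and *Psat1* by 0.05, 0.44 and 0.63 (-0.37, SE 0.32). *Atf4* itself was lower by 0.17, 0.33 and 0.24 (-0.25, SE 0.13). In all of these genes the values of the siRNA groups overlapped.

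The arrays of 1 experiment deviate together, which the fit above does not use. With the experiment as a block, *Phgdh*, *Atf5*, *Mthfd2*, *Asns*, *Chac1* (a dim signal), *Atf4* and *Psat1* were lower at an unadjusted p under 0.05 by limma, 7 of the 10 beside 5.99% of all genes, and 5.61% of all genes were higher. None passed after adjustment over all genes, the 10 adjusted p-values running from 0.343 to 0.787. The differences of *Ddit3* in the 3 experiments were -0.46, 0.18 and -0.14, and those of *Sesn2* were 0.03, -0.57 and -0.17. In experiment 1 alone the median of the 10 differences was -0.21, in experiment 2 -0.54 and in experiment 3 -0.31, while the medians of all genes were -0.03, 0.03 and 0.05. Without experiment 1, 9 of the 10 were lower with a median of -0.45 (0.04 over all genes), *Ddit3* turning to 0.023, and none passed.

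White adipocyte markers moved with these genes at D2. Of 13 markers 11 were lower with Paral1-siRNA (median difference -1.41), with a mean level of 7.16, 10.39 and 10.10 in Ctrl-siRNA and 6.69, 9.36 and 7.71 in Paral1-siRNA cells in experiments 1, 2 and 3, and 7 to 10 of them above background on an array. The medians of the 13 differences were -0.29, -1.05 and -2.62 in the 3 experiments. Of 7 proliferation markers 6 were lower (median -0.36, mean level 9.66, 11.25 and 10.90 against 9.50, 10.80 and 10.42). The part of either in the differences of the 10 genes was not tested, and in bulk RNA fewer cells of a kind and less RNA per cell cannot be told apart.

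At D9 all 10 genes again had a lower mean with Paral1-siRNA, as did 45.5% of all genes, but by less, with a median of -0.16 against 0.02 over all genes and differences from -0.0039 for *Psat1* to -0.30 for *Asns* (SE 0.33). *Atf4*, *Asns*, *Trib3* and *Ddit3* were lower in all 3 experiments, as were 13.0% of all genes. *Asns* was lower by 0.79 in experiment 4 and by 0.02 and 0.10 in experiments 5 and 6, *Atf4* by 0.15, 0.39 and 0.01, *Trib3* by 0.09, 0.40 and under 0.01 and *Ddit3* by 0.23, 0.29 and 0.07. None of the 10 passed (0.0% of all genes), with or without the block, and none had an unadjusted p under 0.05 by limma in either fit (1.11% of all genes lower and 1.46% higher without the block, 3.71% and 3.17% with it) or by the methods' t-test. No group stood apart for any of the 10, against 2.51% of all genes apart and lower and 4.65% apart and higher. The direction did not hold in every setting: 8 of 10 were lower after quantile normalization and 5 of 10 with array weights. Leaving out the D9 Ctrl-siRNA array of experiment 5, with its Paral1-siRNA partner kept, turned *Atf4*, *Chac1*, *Trib3*, *Ddit3* and *Sesn2*. With both arrays of experiment 5 left out all 10 were lower (median -0.11). With both arrays of experiment 4 left out 8 were lower (median -0.10), and with both of experiment 6 left out 8 (median -0.25). Among the markers at D9, 8 of 13 for white adipocytes were lower with Paral1-siRNA (median -0.06). All 7 proliferation markers were higher (median 0.21), with a mean level of 6.83, 6.72 and 7.44 in Ctrl-siRNA and 7.03, 6.86 and 7.86 in Paral1-siRNA cells. Of these 7, 3 had an unadjusted p under 0.05 by limma with the block, beside 3.17% of all genes higher. All 7 macrophage markers (median 0.10, 0 to 3 above background on an array) and all 6 endothelial markers (median 0.18, 0 above background) were also higher, and 6 of 7 preadipocyte and fibroblast markers were lower (median -0.21). These marker counts stand beside the 45.5% of all genes that had a lower mean. None of the markers passed, and their part in the differences of the 10 genes was not tested.

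The difference of the siRNA effect between the days was tested directly. It was above 0, that is less negative at D9, for 9 of the 10 genes, with a median of 0.22 against 0.01 over all genes, and no gene passed (0.0% of all genes in either direction). It was greatest for *Phgdh* (0.62, SE 0.48, 95% interval -0.45 to 1.69) and *Mthfd2* (0.50, SE 0.51, 95% interval -0.63 to 1.63). Without the block 0 of the 10 had an unadjusted p under 0.05 (0.532% of all genes above 0 and 0.548% below), and with the experiment as a block *Phgdh* alone did (adjusted p = 0.661 by limma), beside 3.48% of all genes above 0 and 3.8% below. With arrays left out the median ran from 0.08 (6 of the 10 above 0, without the D2 Paral1-siRNA array of experiment 3) to 0.41 (without the D2 Ctrl-siRNA array of experiment 3). These intervals come from the fit without the block, which does not use the pairing of the arrays. In that fit they leave room for both equal and unequal effects.

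**Figure D4:**
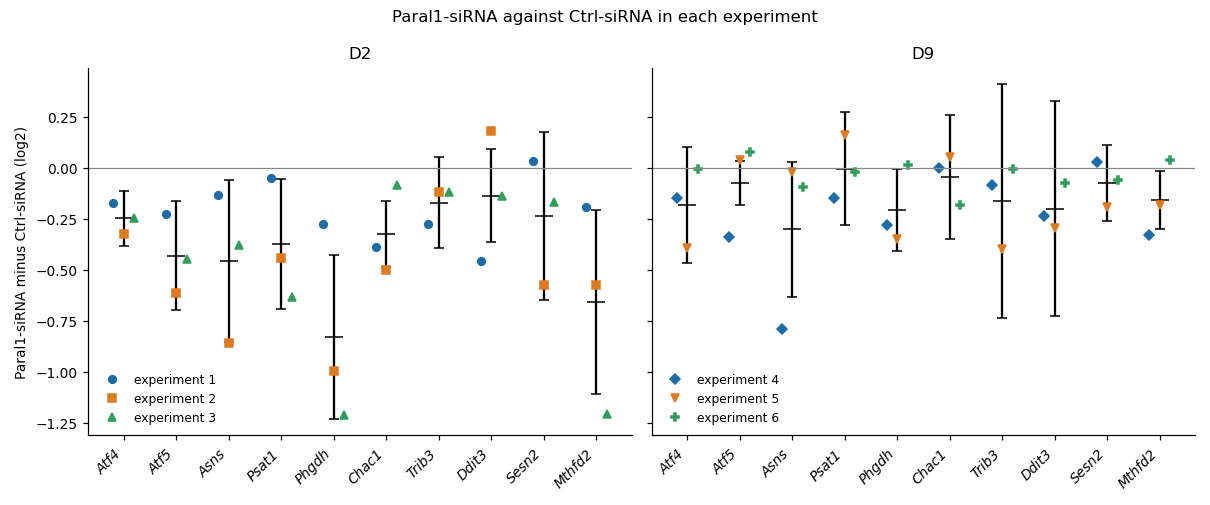
Paral1-siRNA minus Ctrl-siRNA (vertical axis, log2) for the 10 genes at D2 (left) and D9 (right). Coloured symbols are single experiments, black bars the mean difference with its SE from limma without the block. At D2, 8 genes have all 3 symbols below 0, with *Phgdh* and *Mthfd2* reaching -1.21, and at D9 4 genes do.

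By group mean, 8 of the 10 genes had 1 order, D2 Paral1-siRNA lowest, then D2 Ctrl-siRNA, D9 Paral1-siRNA and D9 Ctrl-siRNA. *Sesn2* and *Mthfd2* had the reverse order of days, with D9 Paral1-siRNA lowest and D2 Ctrl-siRNA highest. Neighbours within a day overlapped for all 10, although 7 of them were lower at D2 at an unadjusted p under 0.05 once the experiments were paired, and the neighbours across days overlapped for *Asns*, *Sesn2* and *Mthfd2*.

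Further genes of the pathway were followed from lists of known members, whose counts stand against the shares of all genes given above: between the days 14.9% rose and 26.1% fell in Ctrl-siRNA and 14.5% and 25.2% in Paral1-siRNA cells, and with Paral1-siRNA 0.0% passed. Upstream, 8 genes were measured, those for eIF2alpha kinases and phosphatase subunits together with *Eif2b5* and *Impact*. *Eif2s1*, also listed, was not measured. At D9 4 rose and none fell in each siRNA arm, led by *Eif2ak2*, the kinase PKR that senses double-stranded RNA, from a mean of 9.16 to 12.79 in Ctrl-siRNA cells (adjusted p = 4.71e-05), and by *Eif2ak1*, the heme-regulated kinase (rise of 0.78, SE 0.12, adjusted p = 0.000512). *Ppp1r15b*, the constitutive phosphatase subunit, rose by 0.89 (SE 0.16, adjusted p = 0.00174). With Paral1-siRNA no gene of the list passed at either day. *Ppp1r15b* was lower in all 6 experiments, by 0.12, 0.48 and 0.40 at D2 and 0.39, 0.35 and 0.49 at D9.

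Of 10 bZIP partners and relatives of ATF4, 5 rose and 2 fell at D9 in each arm, beside 14.9% and 26.1% of all genes in Ctrl-siRNA cells. *Nupr1*, a chromatin protein induced by stress, rose from 7.13 to 11.99 in Ctrl-siRNA cells (log2 rise of 4.86, SE 0.38, adjusted p = 6.43e-06) and *Nfe2l2*, which encodes the antioxidant factor NRF2, by 1.24 (SE 0.14, adjusted p = 0.000105). *Cebpb*, the early C/EBP of adipogenesis, fell by 2.21 (SE 0.19, adjusted p = 1.31e-05). *Cebpg*, a C/EBP partner of ATF4, was lower with Paral1-siRNA in all 6 experiments and did not pass. The mean differences were -0.45 (SE 0.47) at D2 and -0.39 (SE 0.12) at D9. With the experiment as a block the SEs were 0.13 and 0.11, and the unadjusted p by limma was 0.018 and 0.015. *Cebpg* did not pass in that fit either.

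Among 11 serine, glycine and one-carbon enzymes beyond the 3 members, 5 rose and 3 fell at D9 in Ctrl-siRNA cells, the share that fell being near that of all genes (26.1%). *Gcsh*, of the glycine cleavage system, rose by 1.79 (SE 0.24, adjusted p = 0.000241), and *Psph*, the last enzyme of serine synthesis, was at least 1.81-fold higher (adjusted p = 0.000169), its D2 signal being within background. *Tyms*, the thymidylate synthase of DNA synthesis, fell by 2.54 (SE 0.28, adjusted p = 7.75e-05). At D2 8 of the 11 were lower with Paral1-siRNA (median -0.19) and none passed. *Gcsh* was lower by 0.23, 0.60 and 0.87 and *Tyms* by 0.37, 0.42 and 0.92 in experiments 1, 2 and 3. Of 7 enzymes for proline, aspartate, glutamate and transsulfuration, 2 rose (*Gpt2* and *Prodh*) and 1 fell (*Got2*) at D9. *Prodh* was at least 1.18-fold higher in Ctrl-siRNA cells, its D2 signal being within background. *Aldh18a1*, the first enzyme of proline synthesis, was lower with Paral1-siRNA by 0.22, 0.92 and 0.40 at D2.

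Of 10 amino acid transporters 1 passed between the days in Ctrl-siRNA cells, the glutamine carrier *Slc1a5* (rise of 1.15, SE 0.42, adjusted p = 0.0486). At D2 8 of 10 were lower with Paral1-siRNA, with a median of -0.12, and none passed. With the experiment as a block 3 were lower and 1 was higher at an unadjusted p under 0.05 by limma. Of all genes 5.99% and 5.61% were. The widest difference was that of *Slc7a5*, the LAT1 carrier of leucine, lower by 0.29, 2.23 and 2.14 in the 3 experiments. Its mean difference was -1.55 (SE 0.83 without the block and 0.40 with it). *Slc3a2*, the partner chain of LAT1, was lower by 0.53, 0.45 and 0.36.

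The tRNA synthetases were the most uniform list. All 11 were lower with Paral1-siRNA in each of the 3 experiments at D2, with a median difference of -0.49, and the medians of the single experiments were -0.25, -0.57 and -0.79. None passed, 2 had an unadjusted p under 0.05 without the block, *Yars* (-0.47, SE 0.16) and *Mars1* (-0.62, SE 0.24), and 10 had one with it, beside 0.668% and 5.99% of all genes, and 14.6% of all genes were lower in all 3 experiments. At D9 10 of the 11 were lower in all 3 experiments (13.0% of all genes), with a smaller median of -0.17 and none at an unadjusted p under 0.05 in either fit. Between the days 2 rose in Ctrl-siRNA cells, *Nars* (1.21, SE 0.43, adjusted p = 0.0441) and *Gars* (1.10, SE 0.39, adjusted p = 0.0464), and 5 in Paral1-siRNA cells, the 2 of 11 being near the 14.9% of all genes that rose.

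The remaining stress targets were mixed. Of 14, 7 rose and 1 fell at D9 in Ctrl-siRNA cells, led by *Eif4ebp1*, an inhibitor of cap-dependent translation, from 10.07 to 13.35 (rise of 3.28, SE 0.23, adjusted p = 3.67e-06), *Herpud1* (2.52, SE 0.30, adjusted p = 0.000133) and *Gadd45a* (2.32, SE 0.28, adjusted p = 0.000135). At D2 6 were lower and 8 higher with Paral1-siRNA (median 0.03), whereas at D9 13 were lower (median -0.10), with none passing at either day. Endoplasmic reticulum stress genes of the ATF6 and XBP1 arms were all lower at D2 (13 of 13, median -0.33, 10 in all 3 experiments), and none passed. At an unadjusted p under 0.05 by limma 3 were lower without the block and 8 with it, beside 0.668% and 5.99% of all genes. Whether the 13 genes depend on ATF4 in these cells was not tested. *Dnajb9*, a chaperone of the XBP1 arm, was lower by 0.64, 0.51 and 0.82 and *Creld2* by 0.52, 0.96 and 0.81. At D9 5 of the 13 rose and 2 fell in Ctrl-siRNA cells, *Dnajb9* rising by 2.66 (SE 0.22, adjusted p = 9.1e-06) and *Calr*, a calcium-binding chaperone, falling by 1.37 (SE 0.11, adjusted p = 5.95e-06). Of 5 relatives of the members, 4 sestrin or tribbles genes and *Chac2*, none passed with Paral1-siRNA, and 4 were higher at either day (median 0.20 at D2 and 0.10 at D9).

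**Figure D5:**
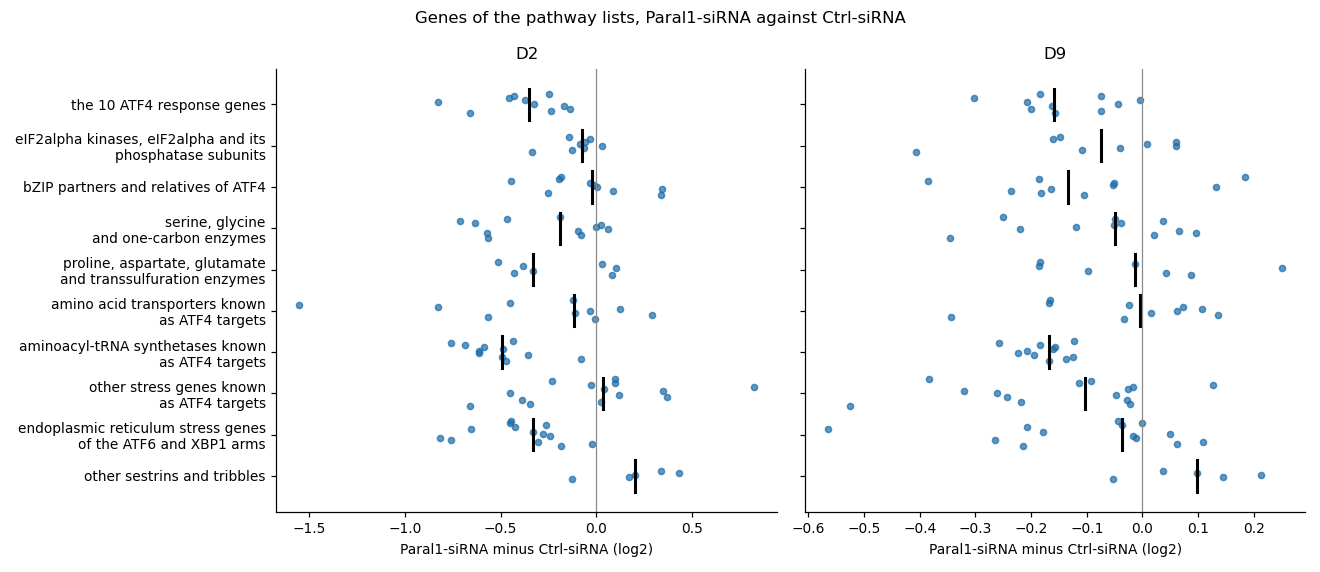
Paral1-siRNA minus Ctrl-siRNA (horizontal axes, log2, scaled per panel) at D2 (left) and D9 (right) for the genes of each list. Each point is a gene and the black bar is the median of its list. At D2 all 11 tRNA synthetases and all 13 endoplasmic reticulum stress genes lie below 0, with medians of -0.49 and -0.33, while the other stress genes lie on both sides.

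The genes whose pattern was most like the mean pattern of the 10 were sought over the deviations of the 12 arrays from their group means, among 11739 genes with a mean above background. The 10 did not share 1 pattern. *Atf4* had r of -0.97 with *Ddit3* and 0.89 with *Asns* at D2. At D9 it had r of 0.98 with *Ddit3* and -0.39 with *Asns*. By Pearson's r with the mean deviation of the 10 genes the closest were *Rpusd3* (0.95), *Aldh18a1* (0.94), *Slc12a7* (0.94), *Poli* (0.94) and *Macroh2a1* (0.92). The points share experiments in pairs and the normalization of their array, and the values rank the genes without testing them. *Aldh18a1* was also in the proline list, and had r of 0.90 over the D2 arrays and 0.99 over the D9 arrays.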

How the data were processed

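Before deposit the authors corrected the arrays for GC content and scaled the signal space in Expression Console 1.4.1, and then ran RMA (Partek Genomics Suite in the methods, Expression Console in the labels). No source used here names the genome build. The deposited log2 values were used with no further normalization or filter. Of 72688 probe sets, 30638 were assigned to 1 symbol and 2176 to several, which were left out as were those with none. This left 30098 genes (318 with the symbol updated), and the brightest probe set was kept for 427 genes with several. Array number (3 per group) limits the precision.

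Each day was fitted alone, and differences involving both days over 12 arrays, with limma 3.58.1 (R 4.3.3, lmFit and eBayes, Benjamini-Hochberg over all genes). Exact permutation tests were two-sided. The fits of the siRNA comparisons were tested on simulated data. Arrays of 1 experiment number deviated together (correlation of deviations from group means over 11739 genes, 0.72 to 0.87 at D2 and 0.73 to 0.86 at D9, against -0.80 to 0.42 for other pairs), and the labels give such arrays the same experiment, so the numbers pair the arrays, and a fit with the experiment as a block was the alternative. The labels give each array of a group its own experiment, so the p-values rest on the spread between experiments. The fits of D9 against D2 took the 2 arrays of 1 experiment as independent although they deviated together, which limits those p-values. With the experiment as a random block, 7 of the 10 genes rose and 1 fell in Ctrl-siRNA cells, and 8 rose in Paral1-siRNA cells, as without it. Of all genes 4543 rose and 7428 fell in Ctrl-siRNA cells with that block, and 4407 and 7215 in Paral1-siRNA cells.

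The 10 members and the gene lists were chosen with earlier results of these data known. Genes named from a list were up to 3 with the lowest unadjusted p among those moving 1 way in all 3 experiments of a day (between days, the lowest p). The stress genes and markers given for experiment 5 were named after their values were seen. The other alternatives were a random block, 12 arrays in 1 fit, quantile normalization, array medians subtracted, a filter on dim probe sets, the mean of a gene's probe sets, a trend and robust prior, array weights, the methods' t-test run unpaired, and leaving out arrays.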

Additional observations from a re-analysis of the deposited data

How the results depend on the processing

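At D2 no gene of the 10 passed with Paral1-siRNA under any alternative, and 2 differed by a fold change of 1.5 or more in the fit reported, 5 with array weights and 0 to 5 with arrays left out (0 with the control array of experiment 2 or the Paral1-siRNA array of experiment 3 omitted, 5 with the control array of experiment 3 omitted). The number at an unadjusted p under 0.05, 0 in the fit reported, was 7 with the experiment as a fixed replicate block, 5 with a random replicate block, 2 with array weights and 1 each with quantile normalization, array medians subtracted and all 12 arrays in 1 fit, and 0 to 2 when arrays were left out (2 with the control array of experiment 1 omitted, 1 with the control array of experiment 3 or the Paral1-siRNA array of experiment 2 omitted). Among all 30098 genes at D2, 381 were lower and 337 higher by a fold of 1.5 in the fit reported. Weighting the arrays raised these counts to 808 and 743. The random block put 1543 of all genes lower and 1618 higher below the unadjusted limit of 0.05, and weighting 1696 and 2105. Quantile normalization put 375 lower and 410 higher below it, subtracted medians 454 and 265, and the single fit of 12 arrays 380 and 408. At D9 none passed, and 0 to 1 had an unadjusted p under 0.05 when arrays were left out (1 with the Paral1-siRNA array of experiment 6 omitted). For the difference of the siRNA effect between days none passed, and 1 had an unadjusted p under 0.05 with the replicate block. In it 1 gene reached a fold of 1.5 (2 with array weights and 0 to 3 with arrays left out). Of all genes, 383 reached that fold above 0 and 491 below in the fit reported, and 859 and 994 with array weights. The block changed no call at the adjusted threshold. Between days 5 to 8 genes were called in Ctrl-siRNA cells and 6 to 8 in Paral1-siRNA cells when arrays were left out, and 6 in each after quantile normalization. The 5 came with the D9 control array of experiment 5 omitted, when *Atf4*, *Atf5* and *Mthfd2* lost their calls. After quantile normalization 5209 of all genes rose and 6178 fell in Ctrl-siRNA cells, and 5284 and 6328 in Paral1-siRNA cells. *Mthfd2* lost its call with array medians subtracted and with the trend and robust prior.

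Directions turned only for siRNA differences that had not passed. With arrays left out the D2 differences of *Trib3*, *Ddit3* and *Sesn2* ran from -0.32 to 0.0271, -0.37 to 0.0578 and -0.60 to 0.0887. Those at D9 ran from -0.36 to 0.10 for *Atf4*, -0.15 to 0.0592 for *Atf5*, -0.23 to 0.23 for *Psat1*, -0.32 to 0.19 for *Chac1*, -0.60 to 0.39 for *Trib3*, -0.62 to 0.26 for *Ddit3* and -0.21 to 0.0934 for *Sesn2*. The differences of the siRNA effect between days ran from -0.12 to 0.35 for *Atf4*, -0.27 to 0.40 for *Asns* and -0.42 to 0.56 for *Trib3*. They ran from -0.48 to 0.40 for *Ddit3* and -0.16 to 0.52 for *Sesn2*. The rises of *Atf4*, *Trib3* and *Ddit3* from D2 to D9 kept their direction in both siRNA arms. At D9 quantile normalization turned *Psat1* (0.0795) and *Chac1* (0.0013), and array weights turned *Atf4* (0.0094), *Chac1* (0.17), *Trib3* (0.24), *Ddit3* (0.15) and *Sesn2* (0.0313). Array weights also turned the difference of the siRNA effect between days of *Ddit3* (0.13). The median over the 10 genes stayed below 0 at D2 in all alternatives (-0.52 to -0.23) and ran from -0.26 to 0.0008 at D9. Signal near background limits *Trib3* and *Chac1* at D2.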
